A study of Mus musculus with 7 samples.

Results

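The genes described here were the 10 core genes of microRNA (miRNA) processing and silencing: *Drosha*, *Dgcr8*, *Dicer1*, *Xpo5*, *Tarbp2*, *Ago1*, *Ago2*, *Ago3*, *Tnrc6a* and *Tnrc6b*. They were chosen by gene symbol, for their known roles, from the 55367 genes of the count table, and all 10 were found and had enough counts to be tested. Their mRNA was compared in mouse CD8+ T cells exposed for 48 hours to 100 µg/mL of small extracellular vesicles (sEVs), which are membrane particles that cells release, from leukemic spleen (LME-sEVs, 3 libraries) or from healthy spleen (HCME-sEVs, 4 libraries). In both groups the T cells came from spleens of Foxp3 YFP/cre mice, described as healthy, and had been sorted as CD8+ before treatment, with no mouse age given. Neither group went without vesicles. The concentration is the one in the labels, which is equal for both groups, whereas the methods describe vesicle amounts set to those of each kind of spleen, so whether the groups received equal amounts is unclear. The methods describe leukemic vesicles from Eμ-TCL1 mice, a model of chronic lymphocytic leukemia in which an immunoglobulin enhancer drives human TCL1 in B cells, and healthy vesicles from control spleens. For CD8+ T cells they also describe culture with anti-CD3, anti-CD28 and IL2. The libraries are numbered here as in the labels (HCME 1 to HCME 4, LME 1 to LME 3), and nothing says whether they came from separate mice or cultures, so the tests measure only the spread between these libraries, which may be technical.

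A miRNA begins as a hairpin inside a long primary transcript, which the nuclear Microprocessor, made of DROSHA and DGCR8, cuts out. Exportin 5, the product of *Xpo5*, carries the hairpin to the cytoplasm, where DICER1, with its partner TARBP2, trims it to a short duplex. An Argonaute protein keeps one strand as a guide to matching mRNAs, and a TNRC6 (GW182) protein bound to it recruits the enzymes that shorten the poly(A) tail and remove the cap. In T cells this pathway shapes activation, survival and effector programs. The vesicles of the study were reported to carry miRNAs, and this raises the question of whether recipient cells differed in the machinery through which miRNAs are made and act. The libraries count mRNA 3′ ends, so mature miRNAs were not measured.

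The measured mRNA levels of the machinery were close in both treatments, although the intervals given below allow moderate differences. Of the 10 genes, only *Tnrc6b* passed the test, at 1.27-fold higher with LME-sEVs, none was lower (0 at an unadjusted p under 0.05, and 0 by DESeq2 or limma-voom), and the other 9 had a false discovery rate (FDR) between 0.280 and 0.920 (edgeR's quasi-likelihood test, Benjamini-Hochberg adjustment over 12623 tested genes). That is 1 of 10 called at an FDR under 0.05, against 8.96% of all tested genes and 9.24% of the 10530 genes within the same range of levels. Of the calls over all genes 58.2% were lower with LME-sEVs, and 43.1% when libraries were scaled by their total counts alone. None of the 10 reached the criterion for a differentially expressed gene (DEG), an FDR under 0.05 with a log2 fold change (log2FC) beyond 1, which 1.28% of tested genes met. In 5 genes the log2FC was positive and in 5 negative, with a median of 0.0050 against 0.0095 over all tested genes. The 95% intervals of the 9 genes that were not called, apart from the low *Tarbp2*, lay between -0.53 and 0.49.

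The libraries held 3689831 to 5030522 counts. Levels are counts-per-million (CPM) values with trimmed-mean (TMM) library scaling. The CD8 T cell markers were all present, with a summed 3640 to 3680 CPM with HCME-sEVs and 3880 to 4270 CPM with LME-sEVs, and *Cd4* and *Foxp3* together did not exceed 0.582 CPM in any library. Summed markers of other cells were separate between the groups for B cells and myeloid cells, both higher with LME-sEVs. For the other lists the sums overlapped or met, and no test of the sums was run. The 8 B cell markers summed to 240 to 282 CPM with HCME-sEVs and 322 to 351 CPM with LME-sEVs, the 7 of basophils, mast cells and eosinophils to 5.54 to 35.2 and 29.1 to 46.1 CPM, the 7 erythroid and platelet markers to 71.8 to 175 and 150 to 197 CPM, the 7 myeloid markers to 0.800 to 2.89 and 3.60 to 5.65 CPM, and the 3 NK cell markers to 176 to 200 and 159 to 176 CPM. Most of the NK cell sum was *Eomes*, at 175 to 199 CPM with HCME-sEVs and 159 to 176 CPM with LME-sEVs. *Ncr1* and *Klrb1c* each stayed at or below 1.93 CPM in every library. Most of the B cell sum was *Ighm*, at 220 to 263 CPM with HCME-sEVs and 299 to 325 CPM with LME-sEVs. No marker of the lists above was at 0 in all 7 libraries. The part of these cells, or of RNA carried by the vesicles, in the values given here was not tested. HCME 1 stood farthest from its group, as the 3 highest chi-square values per degree of freedom among the 9 replicate pairs (4.18 to 6.13) all involved it. In bulk RNA, fewer cells that express a gene and less of its RNA per cell cannot be told apart.

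The machinery spanned about 2 orders of magnitude in level, which can be compared roughly between genes here because the assay gives 1 tag per transcript end. The places of *Dgcr8* and *Tarbp2* are less certain, because each has a near-identical gene model at its 3′ end. The full span rests on *Tarbp2*. *Ago2*, which encodes the Argonaute that can itself cut a matched target, and *Tnrc6a* lay above 94% of tested genes in mean level, with ranges over the 7 libraries that overlapped and *Ago2* the higher in 6 of 7. *Tnrc6b* followed, separate from *Tnrc6a* in every library and above *Dicer1* in 7 of 7, although the ranges of these last 2 overlapped. *Dicer1* was above *Xpo5* in 5 of 7 libraries, *Xpo5* above *Dgcr8* in 7 of 7, and *Dgcr8* above *Drosha* in 7 of 7, each pair with overlapping ranges. *Ago1* stood below all of these, then *Ago3*, which it exceeded in 7 of 7, and *Tarbp2*, at about 2 CPM, was the lowest. Summed over the 10 genes, the level was 779 to 867 CPM with HCME-sEVs and 859 to 902 CPM with LME-sEVs, so the groups overlapped.

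**Figure D1:**
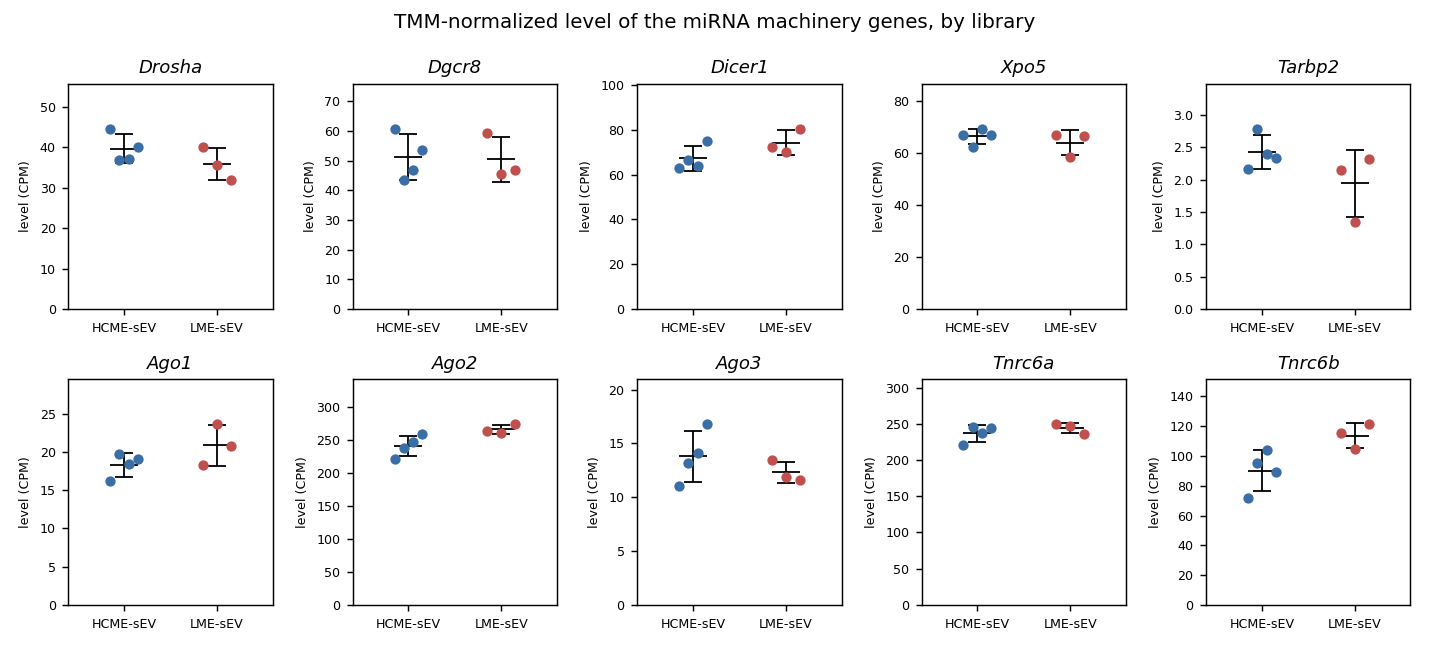
Level of each of the 10 genes in each library, in TMM-scaled counts-per-million (CPM) on an axis from 0 for each gene. Points are the 4 HCME-sEV and 3 LME-sEV libraries and bars are group means with SD. The groups overlap for all genes but *Ago2* (222 to 259 against 261 to 274 CPM) and *Tnrc6b* (71.6 to 104 against 105 to 121 CPM).

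The TNRC6 proteins are the scaffolds between Argonaute and the silencing enzymes, and *Tnrc6b* (chromosome 15, 80711313-80941085, plus strand, in GRCm38) held the single difference that passed the test. Its level was 71.6, 95.3, 104 and 89.4 CPM in HCME 1 to 4 and 115, 105 and 121 CPM in LME 1 to 3. Every LME-sEV library lay above every HCME-sEV library, by a margin of under 1 CPM between LME 2 and HCME 3, and HCME 1 was well below the rest of its group. The means were 90.1 ± 13.8 CPM (SD, n = 4) and 114 ± 8.35 CPM (SD, n = 3), a log2FC of 0.34 (standard error 0.11, 95% interval 0.12 to 0.56) at an edgeR FDR of 0.0488. The call depended on single libraries. It was lost without HCME 1 (log2FC 0.24, FDR 0.114), HCME 2 (FDR 0.0753), HCME 4 (FDR 0.0983), LME 1 (FDR 0.118), LME 2 (FDR 0.0810) or LME 3 (FDR 0.215), and held without HCME 3, while the log2FC stayed between 0.24 and 0.42. With DESeq2 the FDR was 0.0528.

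The other family members showed no such difference. *Tnrc6a* (chromosome 7, 123123885-123195296) measured 220, 246, 237 and 245 CPM with HCME-sEVs and 249, 247 and 236 CPM with LME-sEVs, and the groups overlapped (log2FC 0.041, 95% interval -0.12 to 0.20, FDR 0.809). *Tnrc6c*, the third paralog, was at 30.3 ± 4.18 CPM (SD, n = 4) and 31.0 ± 4.73 CPM (SD, n = 3), with a log2FC of 0.046 (95% interval -0.24 to 0.33, FDR 0.884) that turned to -0.046 without HCME 1 and -0.056 without LME 3. Of the family's counts, *Tnrc6a* took 69.7%, 65.8%, 63.2% and 67.1% with HCME-sEVs and 63.8%, 64.3% and 60.2% with LME-sEVs. *Tnrc6b* took 22.6%, 25.5%, 27.8% and 24.5% with HCME-sEVs and 29.6%, 27.3% and 30.9% with LME-sEVs. The shares overlapped between the groups for both genes, through HCME 3, whose *Tnrc6b* share was above that of LME 2. All 3 paralogs were therefore present in both groups, with *Tnrc6a* the most abundant in each library.

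**Figure D2:**
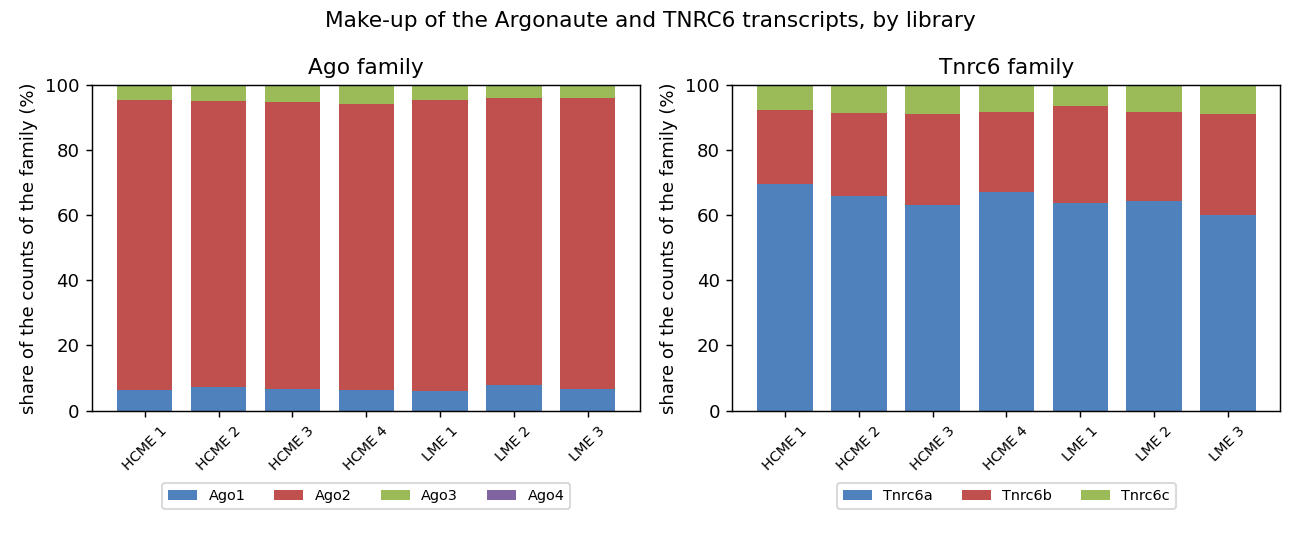
Share of the counts of the Argonaute family (left) and of the TNRC6 family (right) that each paralog took in each library, in percent. *Ago2* fills 87.8% to 89.3% of its family in all 7 libraries, and *Tnrc6b* 22.6% to 27.8% with HCME-sEVs and 27.3% to 30.9% with LME-sEVs.

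The Argonautes hold the guide strand. *Ago2* (chromosome 15, 73095844-73184935, minus strand) measured 222, 239, 247 and 259 CPM with HCME-sEVs and 265, 261 and 274 CPM with LME-sEVs. The groups did not overlap, as was true with higher values under LME-sEVs for 2 of the 10 genes (*Ago2* and *Tnrc6b*) and for 9.49% of all tested genes (20.3% in either direction), yet the difference was small and was not called (log2FC 0.14, standard error 0.076, 95% interval -0.017 to 0.30, FDR 0.280). *Ago1* (chromosome 4, 126435012-126468583) was at 18.4 ± 1.57 and 20.9 ± 2.65 CPM (SD, n = 4 and 3), a log2FC of 0.19 (95% interval -0.10 to 0.49, FDR 0.461). *Ago3*, its neighbor on the same strand (126331704-126429556), was at 13.8 ± 2.36 and 12.3 ± 0.980 CPM (SD, n = 4 and 3), a log2FC of -0.17 (95% interval -0.53 to 0.19, FDR 0.618). For both genes the groups overlapped. *Ago4*, the next gene in that cluster, had 0 or 1 count in each HCME-sEV library and 0, 2 and 4 counts in the LME-sEV libraries, so that it was at about the limit of detection, where 3 counts correspond to 0.582 to 0.807 CPM, and was not tested. *Ago2* made up 87.8% to 89.0% of Argonaute counts with HCME-sEVs and 87.9% to 89.3% with LME-sEVs, and *Ago1* 6.17% to 7.94% over the 7 libraries. *Ago3* made up 4.44% to 5.68% with HCME-sEVs and 3.79% to 4.54% with LME-sEVs, which overlapped through HCME 1 and LME 1.

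Neither Microprocessor gene was called, and the groups overlapped for both. *Drosha*, the nuclear RNase III enzyme (chromosome 15, 12824815-12935291), measured 44.6, 36.7, 37.1 and 40.0 CPM with HCME-sEVs and 40.1, 35.5 and 32.0 CPM with LME-sEVs. Its groups overlapped, with LME 3 the lowest and HCME 1 the highest (log2FC -0.15, 95% interval -0.40 to 0.089, FDR 0.475). *Dgcr8*, the RNA-binding partner that positions the cut (chromosome 16, 18253948-18289246), measured 60.7, 43.3, 47.0 and 53.5 CPM with HCME-sEVs and 59.2, 45.4 and 46.7 CPM with LME-sEVs, which gave a log2FC of -0.031 (95% interval -0.29 to 0.23, FDR 0.920), and was positive by library size only (0.015) and without HCME 1 (0.061), LME 2 (0.037) or LME 3 (0.024). The 2 subunits are linked by known feedback, since the complex cuts hairpins within the *Dgcr8* mRNA and DGCR8 stabilizes DROSHA. The ratio of *Dgcr8* to *Drosha* counts was 1.29 ± 0.0821 (SD, n = 4) with HCME-sEVs and 1.41 ± 0.110 (SD, n = 3) with LME-sEVs, with overlapping values. Counts of *Dgcr8* are uncertain, because an overlapping gene model, *Gm49776*, shares its 3′ end, and the transcript overlaps *Trmt2a* on the opposite strand.

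No gene of export or dicing was called, although some of the intervals are wide. *Xpo5* (chromosome 17, 46202782-46243598) was at 66.4 ± 2.94 CPM (SD, n = 4) and 64.1 ± 4.68 CPM (SD, n = 3), the narrowest interval of the early steps (log2FC -0.053, 95% interval -0.25 to 0.14, FDR 0.798; 0.0064 without LME 2). *Dicer1* (chromosome 12, 104687742-104751952) measured 63.1, 66.7, 64.0 and 75.2 CPM with HCME-sEVs and 72.4, 69.9 and 80.5 CPM with LME-sEVs. All but HCME 4 of the HCME-sEV libraries lay under the LME-sEV values, and the difference was not called (log2FC 0.14, 95% interval -0.055 to 0.34, FDR 0.398). *Tarbp2*, which encodes the double-stranded RNA-binding partner of DICER1 (chromosome 15, 102518192-102523676), had 9, 11, 9 and 10 counts with HCME-sEVs and 8, 6 and 12 with LME-sEVs. A difference of this size was not detectable at such counts (log2FC -0.31, 95% interval -1.12 to 0.51, FDR 0.703), and a near-identical gene model, *Gm18584*, makes its counts uncertain as well. *Prkra*, whose product PACT is the alternative partner of DICER1, was at 7.56 ± 1.74 and 9.77 ± 2.55 CPM (SD, n = 4 and 3), with a log2FC of 0.37 (95% interval -0.10 to 0.85, FDR 0.355). The mean counted level of *Prkra* was above that of *Tarbp2* in both groups, a comparison as uncertain as the counts of *Tarbp2*.

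**Figure D3:**
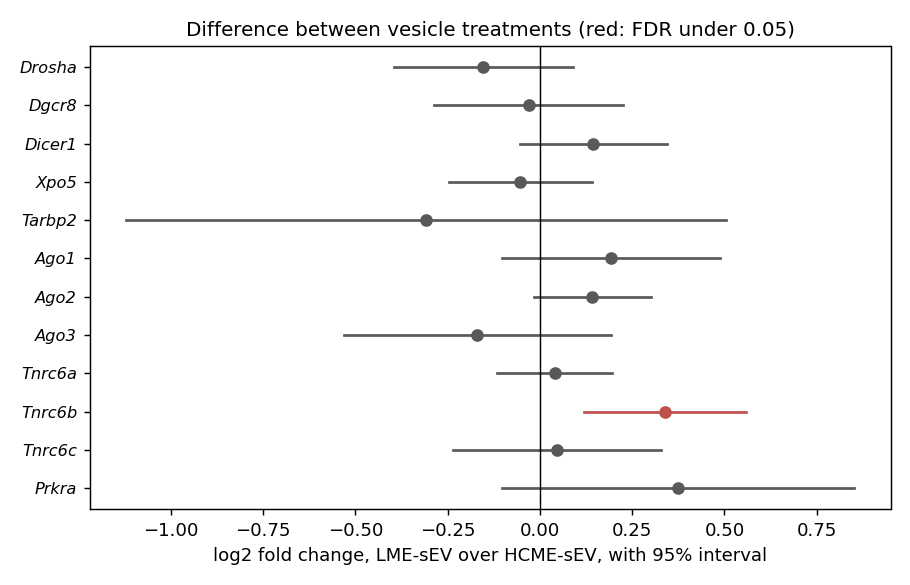
Log2 fold change, LME-sEVs over HCME-sEVs, of the 10 genes and of *Tnrc6c* and *Prkra*, with 95% intervals from edgeR's quasi-likelihood fit. The interval of *Tnrc6b* (0.12 to 0.56) lies above 0. Those of the other 9 genes, *Tnrc6c* and *Prkra* include 0, and that of *Tarbp2* is the widest (-1.12 to 0.51).

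Positions refer to the GENCODE vM21 annotation of GRCm38, in which 4 of the 10 genes lie on chromosome 15, far apart from each other. Exons of *Ago2* overlap *Chrac1* on the opposite strand, those of *Drosha*, *Tnrc6a* and *Tnrc6b* the gene models *Gm47288*, *Gm45846* and *Mir5113* on the same strand, and the strand setting of the counting is not given in the sources used here. The longest annotated 3′UTR was 169 bases in *Drosha*, 1221 in *Tarbp2*, 1327 in *Xpo5*, 1574 in *Dgcr8*, 3397 in *Tnrc6a*, 3851 in *Dicer1*, 4491 in *Ago1*, 11064 in *Ago2*, 11609 in *Tnrc6b* and 12742 in *Ago3*. The genes of the silencing complex thus had longer 3′UTRs than the Microprocessor and export genes. A miRNA recognizes its targets mainly through its seed, bases 2 to 8, and some of the machinery genes are themselves known targets, such as *Dicer1* for the miR-103/107 family. The mature sequences below are from RefSeq (GRCm38.p6), with the seed in capitals, and are shown because they belong to miRNAs with a role in T cells or reported in the vesicles, or to known regulators of the machinery.
miR-155-5p: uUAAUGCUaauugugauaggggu
miR-142a-5p: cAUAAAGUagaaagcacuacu
miR-142a-3p: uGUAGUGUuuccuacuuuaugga
miR-146a-5p: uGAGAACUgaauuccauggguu
miR-17-5p: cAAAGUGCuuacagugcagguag
miR-21a-5p: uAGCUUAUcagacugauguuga
miR-27a-3p: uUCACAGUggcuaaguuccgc
miR-210-3p: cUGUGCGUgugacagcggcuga
miR-103-3p: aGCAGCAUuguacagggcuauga
No 2 of these share a seed.

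The 3′UTRs were searched on the transcript strand for the reverse complement of each seed and of that of let-7a-5p, a search chosen after the expression values were seen. Not searched were miR-150 and miR-378a, which the study also reported in the vesicles. For miR-155-5p, a miRNA induced when T cells are activated, the match AGCATTA occurred in 3 of the 10 genes, with 2 matches in *Tnrc6b*, 1 in *Ago2* and 2 in *Ago3*. The windows below give 11 bases on each side of the match, in capitals, and the position of its first base in the 3′UTR.
Tnrc6b, base 1368: ctctctcgctgAGCATTAcctgtgccagg
Tnrc6b, base 3669: ttttaaatatgAGCATTActaaaggaaaa
Ago2, base 7633: gggtacaattcAGCATTAaattaaaattt
Ago3, base 6287: accttgtctgcAGCATTAtgtaagaacat
Ago3, base 6770: gggagcaaacaAGCATTAataaactggat
In 3′UTRs of this length such a match is common, as it was found in 50.0% of 40 regions as long as that of *Tnrc6b*, in 51.0% of 49 for *Ago2* and in 62.1% of 29 for *Ago3*. Some other seeds matched these genes as often or more often, and some less often or not at all. *Tnrc6b* also held 2 matches each for miR-146a-5p and miR-21a-5p. *Ago2* held 3 each for miR-27a-3p and let-7a-5p, and *Ago3* 3 each for miR-142a-5p and miR-17-5p. What any of these matches has to do with the expression values was not tested. The *Dicer1* 3′UTR held 1 match to the miR-103-3p seed, at base 1417, a match that 27.4% of 1760 regions of this length also held. It was not particular to *Dicer1*, as it also occurred in *Dgcr8* (1), *Tarbp2* (2), *Ago1* (1), *Ago2* (2), *Ago3* (1) and *Tnrc6b* (2).
Dicer1, base 1417: tgcttcatgtaATGCTGCacttaggttca
*Xpo5* had no match to any of the 10 seeds searched.

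Beyond the core genes, 77 further genes of the pathway were listed by role, and 73 could be tested. Of these, 3 were higher and 7 lower with LME-sEVs, or 13.7% against 8.96% of all tested genes, and their median log2FC was -0.038. None of these calls met the DEG criterion. The called genes were chaperones that load Argonaute, single factors of tail shortening, decapping and translational repression, and nuclear cofactors. Without single libraries the number called was between 4 and 11, with 6 without HCME 2, LME 1 or LME 3 and 4 without LME 2.

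Argonautes take up the miRNA duplex with the help of the HSP90 and HSP70 chaperones. Of the 8 genes of this list 3 were lower and 1 higher, against 5.21% and 3.75% of all tested genes, with a list median of -0.17. *Hsp90aa1*, the inducible HSP90, was at 2208, 1794, 1735 and 1747 CPM with HCME-sEVs and 1479, 1257 and 1398 CPM with LME-sEVs, so every LME-sEV library was below every HCME-sEV library and HCME 1 was the highest (log2FC -0.44, FDR 0.00420). *Ptges3*, which encodes the HSP90 co-chaperone p23, measured 395, 395, 379 and 362 CPM with HCME-sEVs and 296, 280 and 308 CPM with LME-sEVs. It was lower with LME-sEVs by 0.38 on the log2 scale (standard error 0.074, FDR 0.00327), with all 3 LME-sEV libraries below every HCME-sEV library. *Dnajc7*, a co-chaperone that bridges HSP70 and HSP90, measured 109, 107, 108 and 99.9 CPM with HCME-sEVs and 85.3, 80.2 and 77.4 CPM with LME-sEVs. All 3 of the latter lay below every HCME-sEV library, with a log2FC of -0.39 and an FDR of 0.00638. *Fkbp5*, an HSP90-binding immunophilin also known as a glucocorticoid-induced gene, differed the other way. It was at 79.0, 86.2, 77.4 and 92.9 CPM with HCME-sEVs and 112, 115 and 131 CPM with LME-sEVs, a log2FC of 0.51 (standard error 0.091, FDR 0.00156). Its paralog in the list, *Fkbp4*, was not called (log2FC -0.25, FDR 0.122). The calls of *Ptges3* and *Fkbp5* held in each of the 16 alternative settings, that of *Hsp90aa1* was lost without LME 2 (FDR 0.0525) and that of *Dnajc7* without LME 3 (FDR 0.0528). *Hsp90aa1* has 3 near-identical gene models, and *Dnajc7* overlaps *Cnp* and *Nkiras2* on the opposite strand.

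Downstream of TNRC6, the CCR4-NOT and PAN2-PAN3 complexes shorten the poly(A) tail. Of 16 genes only *Cnot6l*, one of the paralogous catalytic subunits of CCR4-NOT, was called, against 8.96% of all tested genes. It measured 255, 282, 285 and 263 CPM with HCME-sEVs and 354, 371 and 346 CPM with LME-sEVs, with a wide gap between the groups (log2FC 0.39, standard error 0.074, FDR 0.00231), and the call held in each of the 16 alternative settings. The list had a median log2FC of 0.0086, and its genes were evenly split between positive and negative values. The 24 genes of decapping and repression included 3 lower and 0 higher ones by edgeR, DESeq2 and limma-voom alike (7 and 2 at an unadjusted p under 0.05), against 5.21% lower and 3.75% higher over all tested genes, with a median of -0.074. *Mov10*, an RNA helicase that associates with Argonaute, was at 13.0, 20.5, 15.7 and 19.8 CPM with HCME-sEVs and 8.07, 11.01 and 11.05 CPM with LME-sEVs, the largest difference among the called pathway genes (log2FC -0.76, standard error 0.19, FDR 0.0142). *Lsm7*, a subunit of the LSM ring that binds shortened tails and favors decapping, was lower with LME-sEVs by 0.39 on the log2 scale (FDR 0.0142). The cap-binding repressor *Eif4e2* (4EHP) was lower by 0.29 (FDR 0.0256). *Mov10* was not called without HCME 2 (FDR 0.0555), HCME 4 (FDR 0.0502), LME 1 (FDR 0.0697) or LME 2 (FDR 0.0515), and *Lsm7* was not called without LME 2 (FDR 0.118). *Eif4e2* was not called without HCME 1 (FDR 0.0545), HCME 2 (FDR 0.0601), LME 1 (FDR 0.0746), LME 2 (FDR 0.127) or LME 3 (FDR 0.0818), or with scaling by library size only (FDR 0.0544). *Lsm7* has 2 near-identical gene models.

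Among the nuclear cofactors 12 of 14 were tested, with 1 higher and 1 lower (3.75% and 5.21% over all tested genes) and a median of -0.16. *Ddx17* (p72), an RNA helicase that accompanies the Microprocessor, measured 206, 174, 179 and 205 CPM with HCME-sEVs and 237, 227 and 239 CPM with LME-sEVs, each LME-sEV library being the higher (log2FC 0.30, standard error 0.081, FDR 0.0258). *Erh*, which encodes a small dimeric partner of the Microprocessor that aids the cutting of clustered hairpins, was lower with LME-sEVs. Its means were 35.7 ± 5.26 CPM with HCME-sEVs and 26.2 ± 1.49 CPM with LME-sEVs (SD, n = 4 and 3), a log2FC of -0.44 (FDR 0.0375). Both calls depended on the libraries included, and that of *Erh* was also lost with DESeq2 (FDR 0.0636) and with scaling by library size only (FDR 0.0631). *Ddx17* lost its call without HCME 2 (FDR 0.108), LME 1 (FDR 0.0733), LME 2 (FDR 0.0754) or LME 3 (FDR 0.114), and *Erh* without HCME 1 (FDR 0.0973), HCME 2 (FDR 0.0520), HCME 3 (FDR 0.0675), LME 1 (FDR 0.105), LME 2 (FDR 0.153) or LME 3 (FDR 0.0836). *Erh* has 3 near-identical gene models and *Ddx17* overlaps *Kdelr3* on the opposite strand. Of the 11 tested genes for tailing and turnover of miRNAs 0 were called by edgeR, DESeq2 or limma-voom, and 0 had an unadjusted p under 0.05. The lowest FDR in that list was 0.276, for the exonuclease gene *Eri1* (log2FC -0.14).

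**Figure D4:**
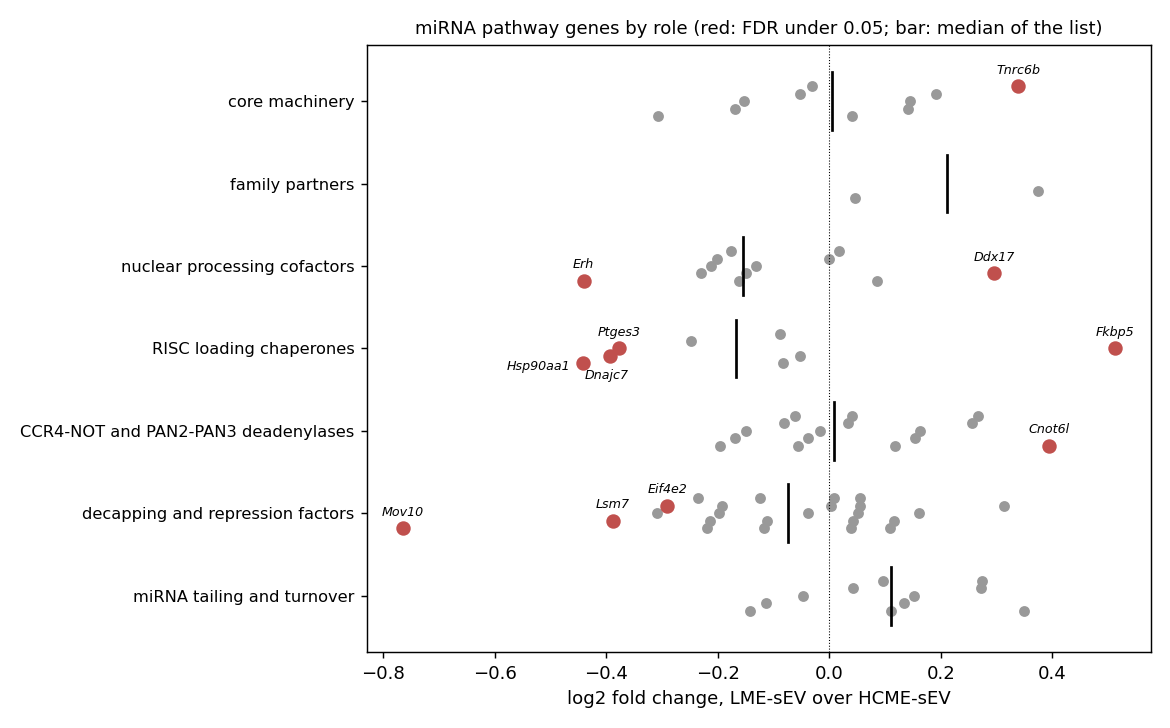
Log2 fold change, LME-sEVs over HCME-sEVs, of each tested gene of the miRNA pathway, with 1 row for each role. Red points with names have an FDR under 0.05 and black bars are list medians, which lie between -0.17 for the loading chaperones and 0.21 for the 2 tested family partners.

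Primary transcripts of miRNAs are polyadenylated and can appear in 3′ libraries. Of 14 host or hairpin genes listed, 7 could be tested, and 1 was called, against 8.96% of all tested genes. *Mir142hg* (chromosome 11, 87755577-87757270, plus strand), the host of miR-142, a miRNA abundant in blood cells, measured 25.5, 21.0, 24.8 and 19.3 CPM with HCME-sEVs and 29.1, 30.1 and 32.0 CPM with LME-sEVs. Each LME-sEV library was higher than each HCME-sEV library (log2FC 0.43, standard error 0.13, FDR 0.0414), but the call was lost without HCME 2 (FDR 0.116), HCME 4 (FDR 0.118), LME 1 (FDR 0.0633), LME 2 (FDR 0.123) or LME 3 (FDR 0.170), and with DESeq2 (FDR 0.0947). The hairpin gene *Mir142* within it, at 1 to 2 CPM, was not called (log2FC -0.22, FDR 0.832). *Mir155hg*, the host of miR-155 (chromosome 16, 84703167-84715245), measured 43.4, 40.8, 40.0 and 37.7 CPM with HCME-sEVs and 40.6, 27.0 and 43.2 CPM with LME-sEVs, so that LME 2 alone was low and LME 3 was near the top (log2FC -0.13, FDR 0.625, and 0.054 without LME 2). *Mir17hg*, the host of the miR-17-92 cluster, was at 38.6 ± 9.19 and 33.7 ± 5.49 CPM (SD, n = 4 and 3), with a log2FC of -0.19 and an FDR of 0.515. *Mir22hg* was low, at 3.73 to 8.11 CPM over all libraries (log2FC -0.0095, FDR 0.990), and its sign changed with the scaling and without HCME 2 (0.20), HCME 4 (0.0008) or LME 1 (0.13). *Vmp1*, whose 3′ end overlaps miR-21a, and *Ppargc1b*, the host of miR-378a, had FDRs of 0.177 and 0.642. The hairpin genes of miR-155, miR-150, miR-21a, miR-378a, miR-27a and miR-210 had 0 counts in all 7 libraries and that of miR-146a at most 1 count, which in libraries of mRNA 3′ ends says nothing of the mature forms.

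Well-known target genes of these miRNAs were counted in the same way, against 8.96% of all tested genes called. Of the 7 listed for miR-155, 1 was called, while 3 were lower and 0 higher at an unadjusted edgeR p under 0.05. Of the 3 for miR-146a and the 4 for miR-17-92, 0 were called by edgeR, DESeq2 or limma-voom. In each of these last lists 1 gene had an unadjusted edgeR p under 0.05, both lower. The 1 for miR-150 was called. *Socs1*, a suppressor of cytokine signaling and a target of miR-155, measured 64.8, 110, 93.9 and 91.0 CPM with HCME-sEVs and 52.7, 62.5 and 59.1 CPM with LME-sEVs. The groups did not overlap, with HCME 1 the nearest to the LME-sEV libraries (log2FC -0.62, standard error 0.13, FDR 0.00529). *Myb*, a transcription factor gene and a target of miR-150, measured 71.3, 84.9, 89.1 and 87.5 CPM with HCME-sEVs and 121, 153 and 118 CPM with LME-sEVs, higher in all 3 LME-sEV libraries (log2FC 0.65, standard error 0.10, FDR 6.39e-04). Both calls held in each of the 16 alternative settings. Both 3′UTRs hold the match to the miR-155-5p seed, 1 in *Socs1* and 2 in *Myb*, shown here as a description. The miR-150 seed was not searched in either.
Socs1, base 20: cgctgtgccgcAGCATTAagtgggggcgc
Myb, base 15: atttccagaaaAGCATTAtggttttcaga
Myb, base 448: aaaccaggagaAGCATTAttttgaatgtt
Of regions of the same length, 10.7% of 6075 held the match for *Socs1* and 6.48% of 9656 for *Myb*. *Myb* overlaps *Gm26577* on the opposite strand.

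**Figure D5:**
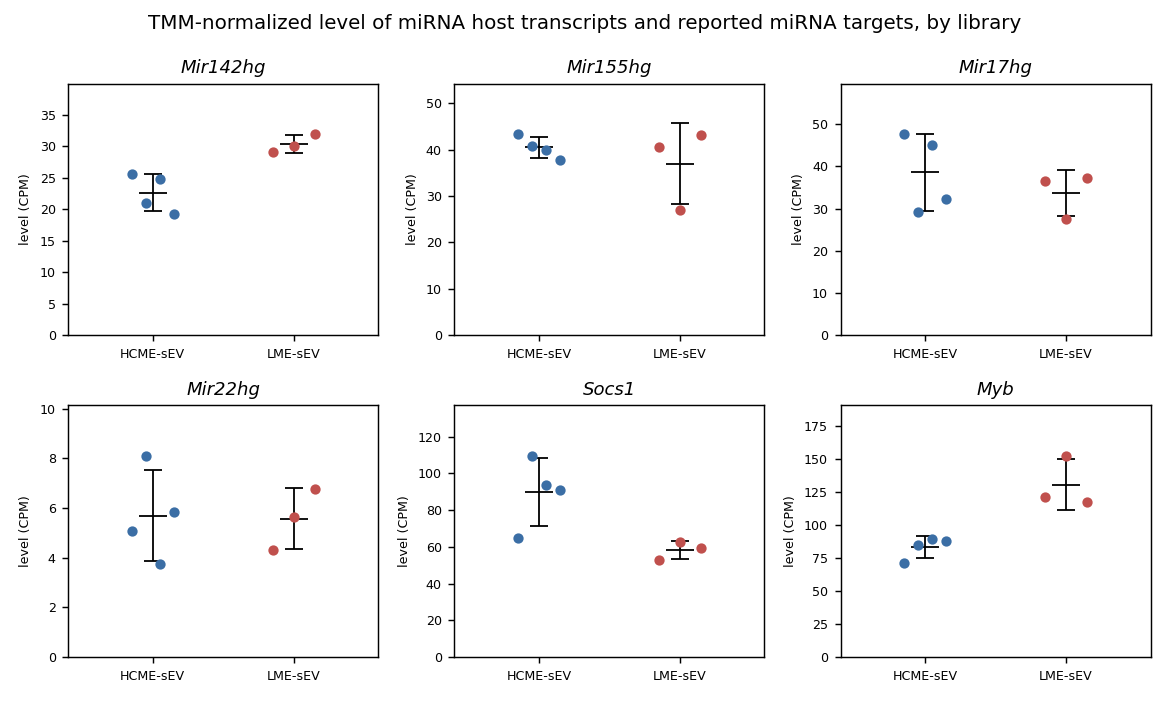
Levels of 4 miRNA host transcripts and of *Socs1* and *Myb* in each of the 4 HCME-sEV and 3 LME-sEV libraries (points), in TMM-scaled counts-per-million (CPM), with group means and SD. *Mir142hg* and *Myb* are higher and *Socs1* lower in all 3 LME-sEV libraries than in all 4 HCME-sEV libraries, while the other 3 host transcripts overlap.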

How the data were processed

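The 7 libraries of CD8+ T cells (4 with HCME-sEVs, 3 with LME-sEVs) were made by the authors with a QuantSeq 3′ FWD kit with molecular identifiers (UMIs), so a gene's length does not enter its level. The deposited values are raw counts per gene, which the authors obtained, per the labels, with cutadapt 2.10, STAR 2.5.3a, UMI-tools 1.0.0 and featureCounts of Subread 2.0.0 on GRCm38. The annotation release is not given in the sources used here. Groups and numbers came from the titles.

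Testing was limited to the 12623 of 55367 genes whose counts averaged 5 or more over the libraries, and was done with edgeR 4.0.16 in R 4.3.3 (TMM, glmQLFit, glmQLFTest, LME-sEVs over HCME-sEVs, no covariate). FDR is the Benjamini-Hochberg value over all tested genes, intervals are 95%, and error in counts limits the genes near 3 counts. DESeq2 1.42.0 and limma 3.58.1 served as alternatives, with other scalings and filters, the replicate number as a block and each library left out. Replicate pairs differed beyond sampling noise, so none was taken for a duplicate. Near-identical gene models were sought by aligning the final 300 bases of each transcript (BLAST 2.17.0, 95% identity over 200 bases or more).

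The 10 genes and all lists were chosen with earlier results of these data known, so they are no independent support. Named were the 10 genes and their 3 family partners, up to 4 called genes of each other list (or the one with the lowest FDR), host transcripts that were tested and called targets. *Fkbp4* was named after its value was seen. The group sizes follow the labels (4 HCME-sEV and 3 LME-sEV libraries). The study's figure legend gives them the other way round, and if the labels were exchanged every fold change here would change sign.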

Additional observations from a re-analysis of the deposited data

Results flagged for a closer look

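In 2 of 40 groups of values tested, a library of the HCME-sEV group stood apart by Dixon's test for 4 samples (critical value 0.829), which chance alone would give in about 5 percent. *Hsp90aa1* in HCME 1, at 2208 CPM against 1735 to 1794 CPM in the rest of the group, had a gap of 0.874 of the group's range. The share of *Ago1* among Argonaute counts in HCME 2, 7.28% against 6.47% to 6.57% in the others, had a gap of 0.877 of the range. The cause of neither was tested.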

How the results depend on the processing

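Over 16 alternative settings, 453 of 509 log2FC values of the 32 named and tested genes kept direction and side of the FDR threshold, and 146 of 159 for the 10 core genes. The number of core genes called was 1 (1 higher) by edgeR with TMM and 0 (0 higher) by the DESeq2 Wald test. Leaving out each library in turn gave 0 to 1 core genes (0 to 1 higher), 4 to 11 of the other pathway genes (10 with all libraries) and 391 to 1305 of all tested genes (1131 with all libraries, 723 without HCME 2, 391 without LME 2, 458 without LME 3). Sign changes occurred only in uncalled genes. *Dgcr8* turned to 0.015 by library size only and 0.0059 with the replicate block, and ranged from -0.15 to 0.061 when each library was left out. Under the same omission *Xpo5* ranged from -0.083 to 0.0064, *Tnrc6c* from -0.056 to 0.16, *Mir155hg* from -0.27 to 0.054 and *Mir22hg* from -0.19 to 0.20. *Mir22hg* also turned to 0.011 with upper-quartile factors, 0.037 by library size only, 0.027 with limma-voom and 0.0062 with the replicate block. *Vmp1* was called without HCME 3. The cause of these changes was not tested, and each omission also left fewer samples. Whether the replicate numbers pair the libraries cannot be settled from 3 pairs. The same-number correlations were 0.027 to 0.15, with 1 over 0.1, and 3 of 6 libraries correlated best with their own number. With the replicate block 1454 genes were called, 1 of them a core gene and 13 other pathway genes, and *Mir142hg* was not (FDR 0.0899). Depth limited *Tarbp2* and *Ago4*.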
